A study of Mus musculus with 23 samples.

Results

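The last step of the first spermatogenic wave was compared between the mouse testis and testis explants in organotypic culture. The step in vivo was the change from 22.5 to 36.5 days postpartum (dpp). The step in culture was the change from D16 to D30, culture days that match these ages. The 10 fresh-tissue libraries of these 4 groups were taken, of 23 samples in the whole series, and the genes described are those for which the step in culture minus the step in vivo differed from 0. Of 27466 counted genes 18780 passed the filter on low counts and were tested, and the step differed for 1097 of them.

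All mice were CD-1 and labelled wt. In vivo libraries came from whole testes of 22.5 dpp (3 libraries) and 36.5 dpp (2 libraries). Cultured libraries came from testes taken at 6.5 dpp and grown as fragments for 16 days (D16, 2 libraries) or 30 days (D30, 3 libraries) in α-MEM with KnockOut serum replacement, gentamicin and retinol. Each cultured library is a pool of explants, and the necrotic centre of the explants was cut away before RNA extraction, so only their outer tissue was measured. The samples hold germ and somatic cells together. In such bulk RNA, fewer cells of a type and less RNA per cell cannot be told apart.

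During this step in the testis, round spermatids formed by meiosis elongate. Spermatids build an acrosome and a flagellum, switch on genes of the haploid phase under the transcription factor CREM, and replace histones first by transition proteins (Tnp1, Tnp2) and then by protamines (Prm1, Prm2). Somatic cells also mature in this period: Leydig cells turn to the adult form that makes testosterone, while Sertoli cells have stopped dividing.

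Total counts ran from 31634658 to 45760541 per library. Levels are given as normalised CPM, that is counts scaled to a common library size by the TMM factors of edgeR, and a step is a log2 fold change, so that a difference of steps of -1 means that the change in culture was smaller by a factor of 2. In 3 libraries the genes of spermatids were lower than in their group mates. Over 55 genes of spermatid chromatin, the acrosome and the sperm tail, the summed level was 3520 in 22.5 dpp replicate 2 against 6530 and 7000 in the others, 1620 in D16 replicate 2 against 3740, and 2470 in D30 replicate 3 against 7010 and 6360. At 36.5 dpp it was 59000 and 54800. The 36.5 dpp libraries are thus far above all others, and the spread within the other groups enters each test below.

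The promoters of a few genes are shown first, because the cAMP response element (TGACGTCA) and its variant in the Prm1 promoter (TGACTTCA) are known sites of CREM. Each stretch of 90 bases lies upstream of the start of the gene in RefSeq (GRCm38.p6) and is written on the strand of the gene, with the element in capitals. Prm1 is the classical haploid gene, although its difference was not called by edgeR. It is followed by 3 examples of genes with a lower step in culture that hold the full element. These are Tmem144 (log2 difference -3.12), Csnk1g2 (-3.04) and Abcg2 (-2.40). Their positions are chr16:10796839-10796928 for Prm1 (minus strand), chr3:79842705-79842794 for Tmem144 (minus strand), chr10:80629566-80629655 for Csnk1g2 (plus strand) and chr6:58640456-58640545 for Abcg2 (plus strand).
Prm1: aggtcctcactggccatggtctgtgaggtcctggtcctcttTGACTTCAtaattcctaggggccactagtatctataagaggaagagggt
Tmem144: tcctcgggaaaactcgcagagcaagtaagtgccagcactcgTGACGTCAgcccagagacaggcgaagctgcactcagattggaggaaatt
Csnk1g2: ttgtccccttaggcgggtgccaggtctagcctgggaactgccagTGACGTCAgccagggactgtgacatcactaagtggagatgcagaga
Abcg2: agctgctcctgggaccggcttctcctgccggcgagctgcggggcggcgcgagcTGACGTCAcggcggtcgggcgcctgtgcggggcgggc

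On both strands of the windows from 250 bases before to 50 after the start, the full element was present in 2.99% of 969 promoters of the genes with a lower step, in 2.01% of 249 promoters of those with a higher step and in 2.59% of 18392 promoters of all genes tested. The variant TGACTTCA was present in 2.17%, 0.803% and 1.33%, and the core TGACG, which the full element contains, in 28.7%, 18.9% and 26.6%. The core of the hypoxia response element, ACGTG, was present in 21.1%, 22.9% and 23%. Over all 32851 promoters of the table the shares were 1.79% for the full element, 1.52% for the variant, 20.8% for TGACG and 19.6% for ACGTG. These shares are descriptions, and binding of CREM was not tested. The full element lay in 29 promoters of genes with a lower step, of which the 3 shown above are examples. It also lay in 5 promoters of genes with a higher step, as in that of Ltbp1 (log2 difference 2.47). Of the 825 and 272 genes with a lower and a higher step, 668 and 202 had a promoter in the table.

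In culture the step was lower than in vivo for 825 genes (4.39% of the genes tested) and higher for 272 genes (1.45%), by the quasi-likelihood test of edgeR with an adjusted p under 0.05. The typical gene with a lower step rose in vivo and stood nearly still in culture. The median step of the 825 genes was 2.71 in vivo and 0.15 in culture, and the median difference -2.56. Of these genes 674 (81.7%) had an in vivo step of at least 1 and a culture step between -1 and 1, 103 had a step of at least 1 in both, and 35 had a step of at least 1 in vivo and of -1 or less in culture. The genes with a higher step were the reverse: their median step was -1.70 in vivo and 0.41 in culture, and 211 of 272 (77.6%) had a step of -1 or less in vivo and between -1 and 1 in culture. Another 14 of these genes had an in vivo step within 1 of 0 and a culture step of at least 1.

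On their own, 4119 genes rose (21.9%) and 3828 fell (20.4%) in vivo, while in culture 1 gene rose (0.00532%) and 0 fell (0%) by edgeR. At an unadjusted p under 0.05 the culture step passed for 1587 genes, 1079 of them upward, and DESeq2 called 429 that rose and 31 that fell. The gene that rose in culture by edgeR was Lcn2, the secreted iron carrier lipocalin 2. Across the 18780 genes the steps, which share no library, had Pearson's r of 0.67 and Spearman's rho of 0.43, with an SD of 1.91 in vivo and 0.97 in culture. Genes are not independent replicates, and the steps come from libraries counted and scaled together. Without the 3 libraries that are low in spermatid genes, r was 0.55 and rho 0.26. Among the 4119 genes that rose in vivo 3222 (78.2%) had a fitted step above 0 in culture and 1376 one of at least 1, and their median step was 2.68 in vivo and 0.47 in culture. Among the 3828 genes that fell in vivo 2740 (71.6%) had a step below 0 in culture, with medians of -1.16 and -0.14.

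**Figure D1:**
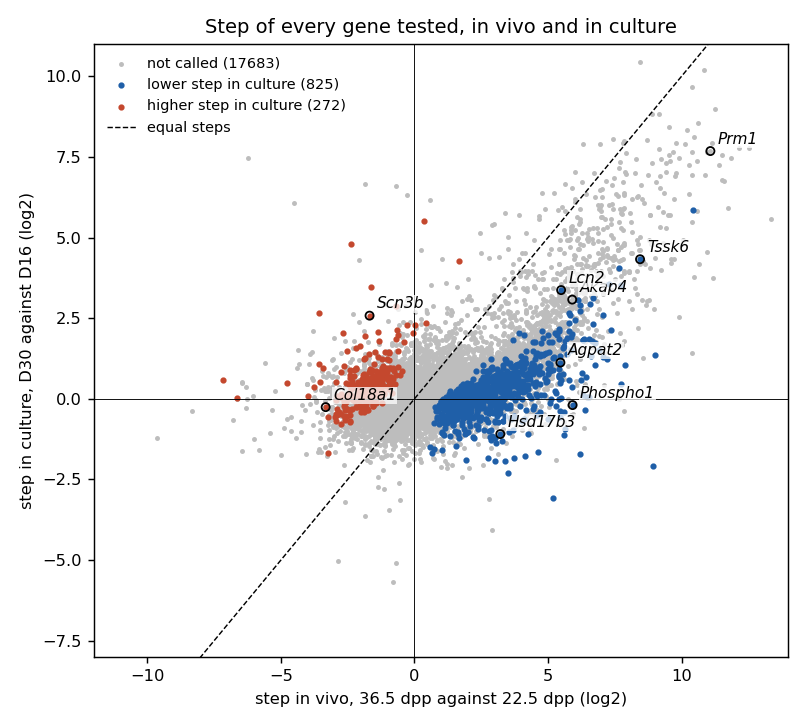
Step in vivo (36.5 dpp against 22.5 dpp, log2) on the horizontal axis and step in culture (D30 against D16, log2) on the vertical axis for the 18780 genes tested, with the 825 genes of a lower step in blue and the 272 of a higher step in red. The blue genes lie to the right near a culture step of 0, and Prm1 lies far up on the right, below the dashed line of equal steps, but was not called.

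The share of lower steps among the calls depends on the scaling. In the 36.5 dpp libraries the TMM factors were 0.72 and 0.70, against 1.01 to 1.15 in the other libraries. Scaled by library size alone, the median difference of all genes moved from 0.01 to 0.58, and 659 genes had a lower and 2902 a higher step, so that the share of lower calls went from 75.2% to 18.5%. Of the original calls 624 lower and 272 higher were called there too, and all 825 and 272 kept their sign. Both DESeq2 and the fit with the 10.5 dpp and D4 libraries added also moved that share, to 64.4% and 38.0%. The thresholds that the study used for its volcano plots (an absolute log2 of at least 2 and an adjusted p of at most 0.001) were passed by 0 genes of the difference, where DESeq2 called 1512 lower and 836 higher steps at 0.05, and the unadjusted p was under 0.05 for 5093 genes. The call also rests on single libraries: without 36.5 dpp replicate 1, 236 lower and 34 higher steps remained, without D16 replicate 1, 300 and 27, and without D16 replicate 2, 1462 and 352. In each of the 10 fits with 1 library left out 177 of the 825 genes and 17 of the 272 genes were called.

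The 10 lower steps with the smallest p were those of Agpat2, Phospho1, Tuba4a, Cdyl, Sh3kbp1, Tspan6, Cxxc5, Dscaml1, Lrrc57 and Trim38, chosen after the stricter set proved empty, with edgeR adjusted p of 0.00164 for Agpat2. Agpat2 (gene 67512, chr2:26593057-26604417) makes phosphatidic acid on the way to phospholipids and triglycerides. Its level was 4.18, 3.94 and 4.99 normalised CPM at 22.5 dpp, 204 and 181 at 36.5 dpp, 7.84 and 8.47 at D16, and 21.8, 17.2 and 14.3 at D30. No group overlapped another. It rose 44.1-fold in vivo, and in culture the fitted change was 2.18-fold (adjusted p = 0.11), a log2 difference of -4.34 ± 0.32 (SE).

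Phospho1, a phosphatase of phosphocholine and phosphoethanolamine, was at 0.209, 0.344 and 0.277 at 22.5 dpp, 16.2 and 18 at 36.5 dpp, 0.827 and 1.37 at D16 and 1.09, 0.737 and 1.05 at D30. Its cultured groups overlapped, and all 5 cultured libraries lay between the in vivo ages. The log2 difference was -6.12 ± 0.49. Dscaml1, a cell adhesion molecule, had 0.314, 0.325 and 0.216 at 22.5 dpp, 39.2 and 31.2 at 36.5 dpp, 0.598 and 0.616 at D16 and 2.16, 1.91 and 1.12 at D30, a difference of -5.41 ± 0.48. Cdyl, a chromatin protein known to act on histone crotonylation in the testis, had 27.1, 30.8 and 26.9 at 22.5 dpp, 363 and 356 at 36.5 dpp, 49.6 and 62.7 at D16 and 81.2, 73.5 and 75 at D30, a difference of -3.22 ± 0.27. Its D30 libraries were all above D16, and all far below 36.5 dpp. Tuba4a, an alpha-tubulin, differed by -4.06 ± 0.34. It shares much of its sequence with other tubulins, so its count is uncertain to the extent that reads were shared. The other 5 had differences from -3.20 (Sh3kbp1) to -4.74 (Trim38). All 10 were called in every fit with 1 library left out, with a highest adjusted p of 0.0135.

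The lists of spermatid genes had large differences, and how many of their members passed the test depended on the libraries in the fit. Over all germ cell lists 12 of 252 genes tested were called lower (4.76%) and 2 higher (0.794%). Over all genes tested it was 4.39% and 1.45%, so the share of lower calls in the germ cell lists was near that of all genes. Of 13 genes tested of spermatid chromatin condensation 10 had a difference below 0, with a median step of 6.52 in vivo and 3.04 in culture and a median difference of -2.32, against a median difference of 0.01 over all genes tested. The test called 1 lower and 0 higher. Without the 3 libraries low in spermatid genes, it called more members lower, and the median difference was -1.82. That choice was made on the levels of chromatin, acrosome and tail genes themselves. It leaves 1 library at D16, and more of all genes tested were called lower there too. Its calls are thus no independent support for these lists. The gene called in the 10 libraries was Tssk6, a kinase required for histone replacement. Its level was 1.41, 0.860 and 1.51 at 22.5 dpp, 513 and 361 at 36.5 dpp, 0.782 and 0.808 at D16 and 24.6, 17.8 and 5.64 at D30. D30 was thus above D16 in every library and below 36.5 dpp in every library. Its step was 348-fold in vivo and 20.1-fold in culture (adjusted p = 0.059), a log2 difference of -4.12 ± 0.74 with an edgeR adjusted p of 0.0168, and of 0.0776 without 36.5 dpp replicate 1. The gene overlaps Ndufa13, and the strand setting of the counting is not given.

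Prm1 (gene 19118, chr16:10796332-10796823), whose promoter is shown above, had 3.66, 0.267 and 4.22 normalised CPM at 22.5 dpp, 7143 and 4517 at 36.5 dpp, 1.15 and 0.962 at D16 and 302, 289 and 59.8 at D30. The D30 libraries were above every D16 library and below both 36.5 dpp libraries. Its fitted step was 2162-fold in vivo and 205-fold in culture (adjusted p = 0.068). The log2 difference of -3.40 ± 1.31 was not called by edgeR (adjusted p = 0.15), and was by DESeq2 (adjusted p = 0.0432). Prm2 had a difference of -3.18 ± 1.30, Tnp1 of -3.51 ± 1.64 and Tnp2 of -2.45 ± 1.05, and none of these was called by edgeR (adjusted p = 0.16, 0.20 and 0.17). Their culture steps were 7.94, 6.2 and 7.47 on the log2 scale. Prm2 had 626, 392 and 114 at D30, lowest in D30 replicate 3, against 1.43 and 1.64 at D16.

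Akap4, the main protein of the fibrous sheath of the flagellum, had 82.3, 12.7 and 81.0 at 22.5 dpp, 3833 and 3195 at 36.5 dpp, 57.8 and 1.10 at D16 and 349, 314 and 80.4 at D30. The D16 libraries lay 57.8 against 1.10 apart, and the difference rests on which of them is used. It was -2.83 ± 1.71 with both, -3.80 without D16 replicate 2 and 1.92 without D16 replicate 1, with edgeR adjusted p of 0.30, 0.066 and 0.55. The same holds for Odf1, a protein of the outer dense fibres (-3.73 ± 1.68 with both, -4.70 without D16 replicate 2, 0.86 without D16 replicate 1), and for Smcp, of the mitochondrial capsule (-2.84 ± 1.60, -3.79 and 1.16). For Gapdhs, the glycolytic enzyme of sperm, the values were -3.33 ± 1.36, -4.21 and -0.56. With D16 replicate 2 left out the differences of Odf1 and Gapdhs were called (adjusted p = 0.0355 and 0.0402).

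**Figure D2:**
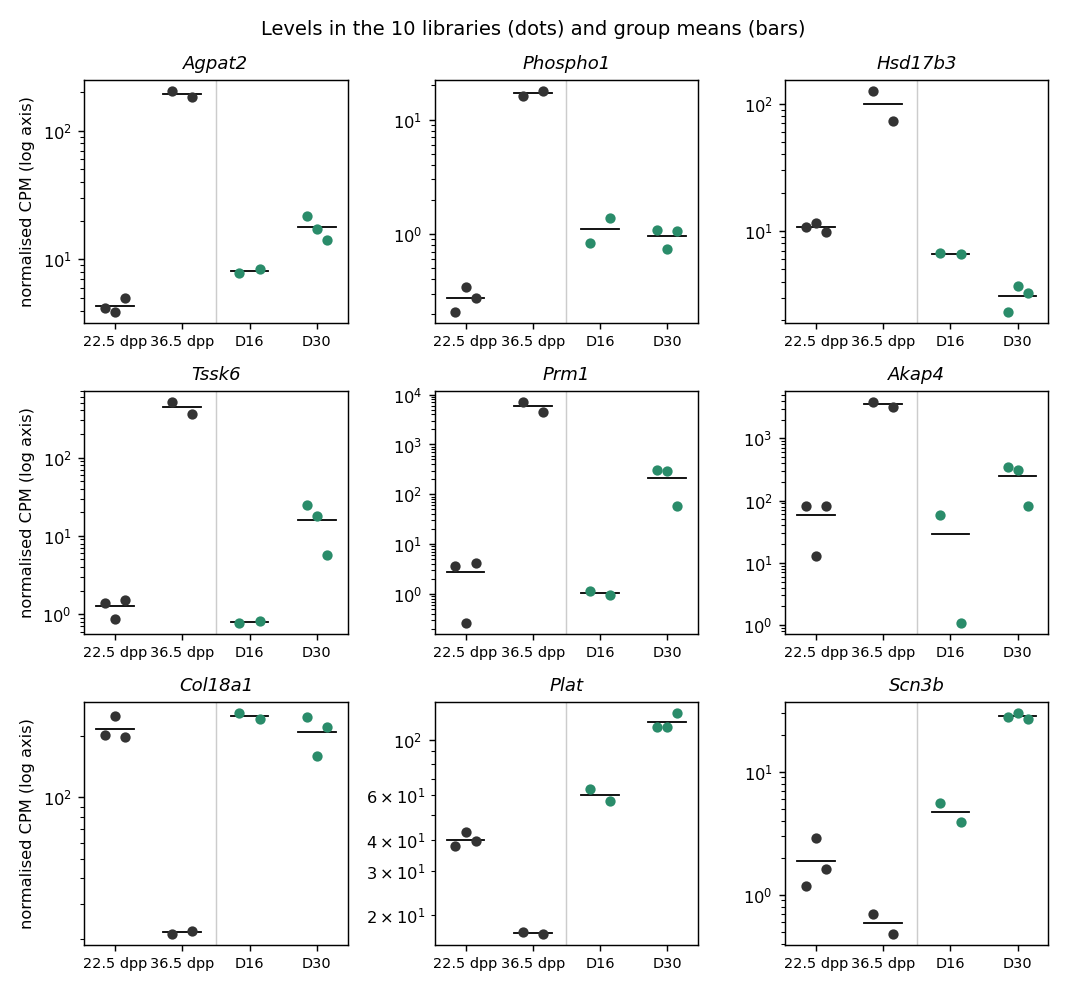
Levels of 9 genes in normalised CPM (log axis, a separate range for each gene) in the 10 libraries, with in vivo groups in black and cultured groups in green; dots are libraries and bars are group means. In Prm1 and Akap4 the D30 libraries lie above D16 but far below 36.5 dpp, and the D16 libraries of Akap4 are apart at 57.8 and 1.10, while in Agpat2, Phospho1 and Hsd17b3 the libraries of a group lie close together.

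In the lists of the acrosome, the fibrous sheath and the mitochondrial sheath nearly all differences were below 0, without a call by edgeR in the 10 libraries. All 20 genes tested of the fibrous sheath and outer dense fibres had a difference below 0 (median -2.23), 16 of them rose in vivo, and 0 were called in the difference. Over all genes tested 49.8% were below 0 and 21.9% rose in vivo. In this and every other list the members come from the same libraries, so their equal signs are not independent of each other. All 12 of the mitochondrial sheath (median -1.76) and 20 of 22 acrosome genes (median -2.10) were below 0, with 0 called in both lists. Under scaling by library size alone these counts were 18, 11 and 17. Without the 3 libraries low in spermatid genes edgeR called members of all 3 lists lower. The medians were then -2.01 for the fibrous sheath, -1.87 for the mitochondrial and -2.30 for the acrosome list. The libraries were chosen by chromatin, acrosome and tail genes, and 1 library is left at D16, so these calls are no independent support. DESeq2 on all 10 libraries called 2 of the fibrous sheath list, 1 of the mitochondrial list and 0 of the acrosome list lower, and 3 of the chromatin list. Other tail genes were mixed. The axoneme had 16 differences below and 10 above 0 (median -0.22), and the CatSper channel with other ion transport 13 below and 6 above 0 (median -0.46), with 0 called. DESeq2 called 1 and 0 of them lower. Without the 3 libraries edgeR called members of both lower, with medians of -0.07 and -0.42. Their medians were 0.34 and 0.09 under library size alone. Of 14 regulators of transcription and RNA in spermatids, among them Crem, 11 were below 0 and 0 were called (median -0.88).

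Among 15 spermatid kinases and genes of cAMP signalling 14 had a difference below 0 (median -1.98) and 4 were called lower, against 4.39% of all genes tested. Without the 3 libraries low in spermatid genes the median was -1.97. Prkar2a, a regulatory subunit of protein kinase A, had 22.3, 28.1 and 17.0 at 22.5 dpp, 281 and 310 at 36.5 dpp, 57.0 and 80.7 at D16 and 78.3, 67.0 and 88.7 at D30. Its level at D16 was above 22.5 dpp in both libraries, and D16 and D30 overlapped. The difference was -3.54 ± 0.37. Camk4, a kinase of the calcium pathway in spermatids, differed by -3.13 ± 0.40, and Ppp1cc, a phosphatase catalytic subunit, by -1.50 ± 0.36. The call of Ppp1cc was lost without any 1 of the 10 libraries (highest adjusted p 0.125 without 36.5 dpp replicate 1).

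Of 21 genes of sperm and egg recognition and fusion 20 were below 0 (median -2.05), against 49.8% of all genes tested. Of these 21 genes 3 were called lower, against 4.39% of all genes tested. Without the 3 libraries low in spermatid genes the median was -2.33. Calr3, a chaperone of the spermatid endoplasmic reticulum, had 4.39, 3.10 and 6.13 at 22.5 dpp, 146 and 190 at 36.5 dpp, 5.40 and 6.66 at D16 and 19.7, 13.6 and 11.4 at D30, a difference of -3.91 ± 0.46. Ace, whose germ-cell form is made in spermatids, had 78.5, 80.3 and 88.0, then 879 and 1122, then 83.8 and 57.3, then 181, 134 and 114 in the same order, a difference of -2.58 ± 0.39. Pmis2, a sperm protein needed for ADAM3 on the sperm surface, differed by -3.32 ± 0.55, with an adjusted p of 0.0659 without 36.5 dpp replicate 1. The D30 libraries of Calr3 and Ace were all above D16 and all below 36.5 dpp. Of 10 glycolytic genes, 1 was called lower: Tpi1, triosephosphate isomerase, at -2.08 ± 0.41, with an adjusted p of 0.0995 without D16 replicate 1. The median of the list was -2.20, and -2.16 without the 3 libraries. The glycolytic list also holds genes of other cells.

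Lists of earlier germ cells had medians on both sides of 0. Of all genes tested 4.39% were called lower and 1.45% higher, and 49.8% had a difference below 0. The 28 genes of meiotic prophase had a median difference of 0.25 (0.81 under library size alone), with 2 called lower and 0 higher. Rec8, the meiotic cohesin, had 30.1, 18.6 and 33.6 at 22.5 dpp, 106 and 128 at 36.5 dpp, 23.4 and 17.0 at D16 and 21.5, 16.7 and 15.3 at D30, a difference of -2.28 ± 0.41 (adjusted p of 0.0646 without D16 replicate 1). Its cultured groups overlapped. Syce2, of the synaptonemal complex, differed by -1.96 ± 0.48 (0.194 without D16 replicate 1 and 0.0597 under library size alone). Of 16 genes of late meiosis 12 had a difference below 0 (median -0.34, and 0.21 under library size alone). Of these 16 genes 1 was called, Ccnb3, a B-type cyclin, with a higher step in culture (3.05 ± 0.53, 0.0672 without D16 replicate 1). Of 15 genes of the piRNA pathway 0 were called (median 0.02).

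Of 24 spermatogonial genes 2 were called lower and 1 higher (median 0.70, and 0.34 without the 3 libraries low in spermatid genes). Of all genes tested it was 4.39% and 1.45%. Stra8, which retinoic acid induces at the entry into meiosis, was at 39.1, 45.5 and 45.2 at 22.5 dpp, 20 and 14.2 at 36.5 dpp, 54.2 and 73.8 at D16 and 63.6, 60.6 and 73.3 at D30. It fell 2.53-fold in vivo, and its cultured groups overlapped. The difference was 1.38 ± 0.33 (adjusted p of 0.201 without D16 replicate 1). Lhx1 differed by -3.64 ± 0.64 (0.0786 without 36.5 dpp replicate 1) and Rhox13 by -2.26 ± 0.43 (0.0956 without 36.5 dpp replicate 1). Rhox13 was above both 36.5 dpp libraries (5.39 and 4.69) in all 5 cultured libraries, which had 6.76 to 12.6. Of 19 genes of the retinoid pathway 2 were called higher, Stra8 and Stra6, the retinol carrier receptor (2.46 ± 0.48, 0.0756 without 36.5 dpp replicate 1), with a median of 0.65 that was 0.34 without the 3 libraries.

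In the somatic lists other than that of Leydig cells the called steps were mostly higher in culture. Over all somatic lists 6 of 110 genes were called lower (5.45%) and 14 higher (12.7%), against 4.39% and 1.45% of all genes tested. Over the lists of responses it was 6 (3.77%) and 14 (8.81%) of 159, and over the germ cell lists 12 (4.76%) and 2 (0.794%) of 252. The summed level of the 20 Sertoli cell genes was 3520 to 5150 at 22.5 dpp and 2390 to 2680 at 36.5 dpp, and 9620 to 11700 at D16 and 9590 to 14400 at D30. In the same libraries the summed level of the 55 spermatid genes was 3520 to 7000 at 22.5 dpp and 54800 to 59000 at 36.5 dpp, and its part in the calls was not tested.

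Of the 20 Sertoli genes 2 were called higher, 0 lower and 19 had a difference above 0 (median 1.01). Of all genes tested 1.45% were called higher, 4.39% lower, and 49.8% had a difference below 0. Gata1, a transcription factor of Sertoli cells, had 32.8, 43.2 and 38.7 at 22.5 dpp, 10.9 and 13.5 at 36.5 dpp, 62.5 and 81.3 at D16 and 72.3, 68.3 and 112 at D30, a difference of 1.87 ± 0.39. Trf, transferrin, differed by 1.64 ± 0.33. Both were lost without D16 replicate 1 (adjusted p = 0.12 and 0.0696). Shbg, the androgen carrier that Sertoli cells release, is among the 10 higher steps with the smallest p. It had 63.0, 51.4 and 59.9 at 22.5 dpp, 10.3 and 8.57 at 36.5 dpp, 132 and 107 at D16 and 86.9, 92.2 and 128 at D30, a difference of 2.40 ± 0.35.

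Leydig cell genes had a median difference of -0.44 (0.13 under library size alone). Among the somatic lists only that of adipocytes, with 5 genes tested, had a lower median (-1.44). Of 17 Leydig genes 3 were called lower, against 4.39% of all genes tested, 0 were called higher and 10 rose in vivo. Hsd17b3 (gene 15487, chr13:64058274-64089262), the enzyme of the last step to testosterone in adult Leydig cells, had 10.8, 11.5 and 9.89 at 22.5 dpp, 126 and 73.0 at 36.5 dpp, 6.67 and 6.56 at D16 and 2.33, 3.71 and 3.25 at D30. The D30 libraries were all below D16. It rose 9.27-fold in vivo, its culture step was -1.09 on the log2 scale (adjusted p = 0.20), and the difference of -4.31 ± 0.40 (edgeR adjusted p = 0.00178) was called in every fit with 1 library left out.

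For other Leydig genes the fitted step in culture had the sign of the step in vivo, without a call (adjusted p = 0.059 for Ptgds, 0.10 for Sult1e1 and 0.14 for Cyp17a1). Ptgds, prostaglandin D synthase, had 4.03, 5.04 and 6.19 at 22.5 dpp, 70.3 and 103 at 36.5 dpp, 16.4 and 11 at D16 and 55.4, 58.0 and 49.6 at D30, a difference of -2.11 ± 0.38 (adjusted p of 0.0718 without D16 replicate 1). Sult1e1, estrogen sulfotransferase, had 0.732, 0.822 and 0.524, then 106 and 39.2, then 1.86 and 0.558, then 9.84, 14.4 and 6.99, a difference of -3.59 ± 0.79 (0.158 without D16 replicate 1). All D30 values of both were above those of D16. Cyp17a1, the enzyme that makes androgen precursors, was far lower in culture at both ages, with 13.7 and 11.4 at D16 and 26.2, 29.3 and 44.8 at D30 against 345, 228 and 312 at 22.5 dpp and 1268 and 1043 at 36.5 dpp. Its difference of -0.55 ± 0.43 was not called (adjusted p = 0.40) and was 0.01 under library size alone. Insl3, a hormone of mature Leydig cells, differed by -2.48 ± 0.98, without a call (adjusted p = 0.15).

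In the extracellular matrix and fibroblast list 6 of 17 genes were called higher and 1 lower (median 1.43). Of all genes tested it was 1.45% and 4.39%. Col1a1, the collagen I chain, had 141, 212 and 127 at 22.5 dpp, 18 and 24.6 at 36.5 dpp, 265 and 274 at D16 and 212, 148 and 286 at D30, a difference of 2.58 ± 0.49 (adjusted p of 0.0742 without 36.5 dpp replicate 1). Fbln1, fibulin 1, differed by 1.87 ± 0.30, and Postn, periostin, by -2.28 ± 0.47 (0.106 without D16 replicate 1). The fall of Postn from 57.0 and 28.9 at D16 to 17.4, 16.4 and 10.4 at D30 was not called on its own (adjusted p = 0.12). The highest ranked of all higher steps was Col18a1, the collagen of basement membranes from which endostatin is cut. It had 202, 253 and 198 at 22.5 dpp, 21.3 and 22.1 at 36.5 dpp, 260 and 244 at D16 and 248, 161 and 223 at D30, a difference of 3.07 ± 0.36 (edgeR adjusted p = 0.00392). It fell 10.0-fold in vivo (log2 -3.33), and its culture groups overlapped.

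Of 12 genes of peritubular myoid cells 2 were called higher and 1 lower (median 1.33), against 1.45% and 4.39% of all genes tested. Acta2, smooth muscle actin, had 172, 229 and 204 at 22.5 dpp, 68.7 and 61.3 at 36.5 dpp, 172 and 146 at D16 and 155, 147 and 271 at D30, a difference of 1.90 ± 0.43 (adjusted p of 0.103 without D16 replicate 1). Smtn, smoothelin, differed by 1.44 ± 0.35 (0.161 without D16 replicate 1, and 0.0969 without the 3 libraries low in spermatid genes). Actg2, a gamma-actin, went the other way with -2.94 ± 0.59: it had 389 and 467 at 36.5 dpp and 5.06 to 37.5 in the other 8 libraries. Its call was lost without D16 replicate 1 (adjusted p = 0.0925). The summed level of the list was 579 to 795 at 22.5 dpp and 626 to 749 at 36.5 dpp. Actg2 alone made up 389 and 467 of the sums at 36.5 dpp. Of the 12 genes 9 fell and 1 rose in vivo, with a median step of -1.22.

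Among 19 macrophage genes 3 were called higher and 0 lower (median 1.07, and 0.63 without the 3 libraries low in spermatid genes). Of all genes tested it was 1.45% and 4.39%. F13a1, coagulation factor XIII subunit A and a marker of resident macrophages, had 60.6, 66.1 and 60.2 at 22.5 dpp, 22.2 and 26.5 at 36.5 dpp, 1.65 and 3.44 at D16 and 4.84, 7.92 and 19.4 at D30. Every cultured library was below every in vivo library. The difference of steps was 3.42 ± 0.77 (0.12 without D16 replicate 1). Mrc1, the mannose receptor, differed by 1.87 ± 0.37 (0.102 without D16 replicate 1) and Adgre1, the F4/80 antigen, by 1.40 ± 0.32, a call lost without any 1 of the 10 libraries (highest adjusted p 0.137, without D16 replicate 1).

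Of 11 endothelial genes and 5 tested red blood cell genes 0 were called in either direction by edgeR, and DESeq2 called 2 endothelial genes lower. The list of 11 epididymis genes had 4 tested, of which Spink8 was called higher (1.89 ± 0.45). Its fitted step in vivo was above 0 (log2 0.44) and was not called (edgeR adjusted p = 0.25). The call of its difference was lost without D16 replicate 1 and without the 3 libraries low in spermatid genes. The summed level of the 4 genes was 8.37 to 13.3 at 22.5 dpp and 16 to 21.8 at 36.5 dpp. In culture it was 0.712 to 1.95 at D16 and 1.61 to 5.53 at D30. Of 5 tested adipocyte genes Fabp4 was called lower (-2.66 ± 0.54, 0.111 without 36.5 dpp replicate 1), although it was at 2.35 to 3.96 in the cultured libraries and at 1.26 and 1.73 at 36.5 dpp.

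**Figure D3:**
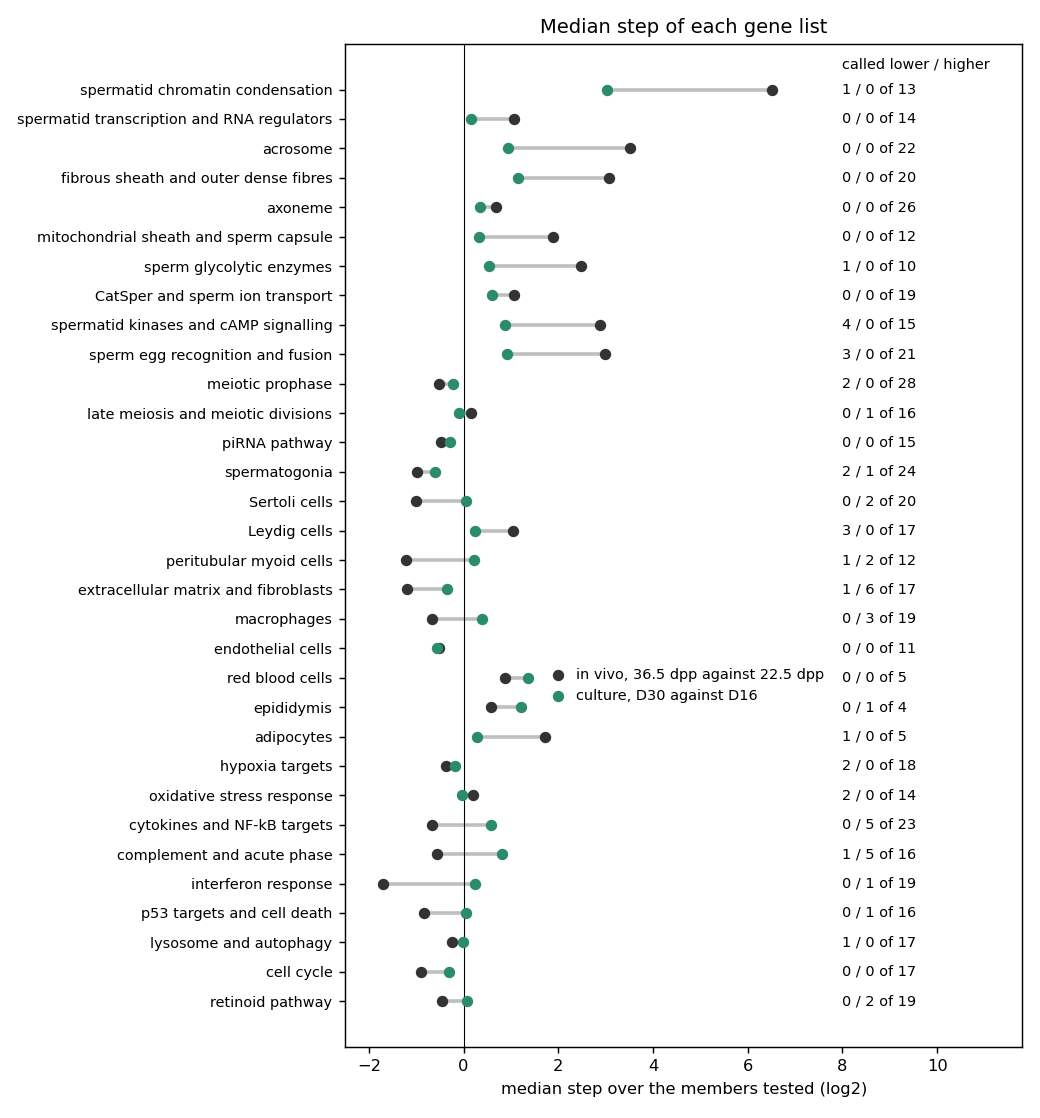
Median step (log2) of the tested members of each of the 32 gene lists, in vivo (dark) and in culture (green), with the counts of members called lower and higher of those tested at the right. Spermatid lists lie to the right in vivo with smaller steps in culture (6.52 and 3.04 for chromatin condensation), while somatic and inflammatory lists other than that of Leydig cells mostly lie left of 0 in vivo.

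Among genes of inflammation the steps in culture were mostly the higher ones. Of all genes tested 1.45% were called higher and 4.39% lower. Of 23 genes of cytokines and NF-kB targets 5 were called higher and 0 lower (median 1.19), among them Relb (1.66 ± 0.35) and Nfkb2 (1.71 ± 0.37), subunits of the alternative NF-kB pathway. Both calls were lost without D16 replicate 1 (adjusted p = 0.129 and 0.131), and without the 3 libraries low in spermatid genes 3 of the list were called higher. Ccl8, a chemokine of monocytes, had 3.51, 9.65 and 4.64 at D30 and 0.0261 to 0.288 in the other 7 libraries, a difference of 5.14 ± 1.29 that was lost without any 1 of the 10 libraries (highest adjusted p 0.194, without 22.5 dpp replicate 2). The lowest of these 7 levels of Ccl8 amounts to 3 counts or fewer, which is not told apart from 0, so the size of its difference is uncertain. Of 16 complement and acute-phase genes 5 were called higher and 1 lower (median 1.36). C3, the central complement component, had 20.2, 20.3 and 20.6 at 22.5 dpp, 10.8 and 19.8 at 36.5 dpp, 46.3 and 55.2 at D16 and 218, 119 and 177 at D30, a difference of 2.17 ± 0.46 (0.111 without D16 replicate 1). Serping1, the C1 inhibitor, differed by 2.20 ± 0.35 (0.0546 without D16 replicate 1), with 143 and 175 at D16 and 216 to 319 at D30 against 58.5 to 73.6 at 22.5 dpp and 22.4 and 22 at 36.5 dpp.

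Lcn2 was the gene with a called step in culture and yet a lower step there than in vivo. It had 8.13, 9.08 and 9.06 at 22.5 dpp, 425 and 362 at 36.5 dpp, 14 and 7.27 at D16 and 108, 132 and 89.7 at D30. It rose 44.9-fold in vivo and 10.3-fold in culture (edgeR adjusted p = 0.045), and the difference was -2.12 ± 0.41 (adjusted p = 0.0205, and 0.0944 without 36.5 dpp replicate 1). In 7 of the 10 fits with 1 library left out 0 genes rose in culture, without D16 replicate 1 it was 1 gene, and without 22.5 dpp replicate 2 and D30 replicate 3 it was 119 and 145 genes.

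All 19 interferon response genes had a difference above 0 (median 1.67), where 49.8% of all genes tested were below 0. Of these 19 genes 1 was called higher, against 1.45% of all genes tested: Tap1, of the peptide transporter for antigen presentation. It had 5.33, 16.4 and 5.73 at 22.5 dpp, 1.52 and 1.92 at 36.5 dpp, 6.92 and 5.87 at D16 and 11.6, 9.58 and 10.7 at D30, a difference of 3.14 ± 0.69 (0.111 without 36.5 dpp replicate 1). The summed level of the list was 187 to 541 at 22.5 dpp, with the highest value in replicate 2, and without the 3 libraries low in spermatid genes the median was 0.69.

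Among stress genes the counts of lower and higher calls depended on the scaling. The genes called lower with TMM factors kept a difference below 0 under library size alone. In the lists of hypoxia and oxidative stress, 2 genes each were called lower and 0 higher, and under library size alone 0 and 2 lower and 1 and 3 higher. Srxn1, sulfiredoxin, of the antioxidant response, had 7.92, 7.17 and 9.46 at 22.5 dpp, 62.0 and 64.1 at 36.5 dpp, 18.7 and 20.3 at D16 and 23.6, 21.4 and 26.3 at D30. Its D30 level was above D16 in every library, by less than the in vivo step, and the difference was -2.66 ± 0.28 (edgeR adjusted p = 0.00288). Osgin1 differed by -2.67 ± 0.48 (0.0569 without 36.5 dpp replicate 2), the other call among the 14 genes of oxidative stress. Of 18 hypoxia targets 2 were called lower, Vldlr (-1.59 ± 0.28, 0.0894 without 36.5 dpp replicate 1) and Ankrd37 (-1.87 ± 0.41, 0.137 without 36.5 dpp replicate 1). Under library size alone both calls were lost (adjusted p = 0.0505 and 0.0624). Vldlr was at 24.7 to 43.0 in culture and 1.26 to 2.84 in vivo. Of 16 p53 targets Sesn2 was called higher (1.68 ± 0.37, 0.149 without D16 replicate 1), and under library size alone 7 were. Of 17 lysosome and autophagy genes Gabarapl1 was called lower (-1.72 ± 0.27, 0.0575 without D16 replicate 1). Of 17 cell cycle genes 0 were called (median 0.25), where DESeq2 called 1 higher and library size alone 7 (median 0.83).

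The 10 higher steps with the smallest p were Col18a1, Plat, Ces2g, Slc4a5, Prelp, Fam107a, Scn3b, Syk, Shbg and Aplp1, all called in every fit with 1 library left out. Plat, tissue plasminogen activator, had 37.8, 42.7 and 39.3 at 22.5 dpp, 17.1 and 16.9 at 36.5 dpp, 63.3 and 56.9 at D16 and 112, 113 and 127 at D30, so that it was lower at 36.5 dpp and higher at D30 than at the earlier age. The difference was 2.20 ± 0.26. Scn3b, a beta subunit of sodium channels, had 1.18, 2.87 and 1.60 at 22.5 dpp, 0.699 and 0.480 at 36.5 dpp, 5.61 and 3.89 at D16 and 28.1, 30.1 and 26.8 at D30, a difference of 4.26 ± 0.58. Prelp, a proteoglycan of the matrix, differed by 3.31 ± 0.44 and Syk, a tyrosine kinase of immune receptors, by 2.44 ± 0.34. The D30 libraries of all 4 were above their D16 libraries, although the culture step of none was called on its own (adjusted p = 0.08 for Plat, 0.06 for Scn3b, 0.40 for Prelp and 0.087 for Syk).

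**Figure D4:**
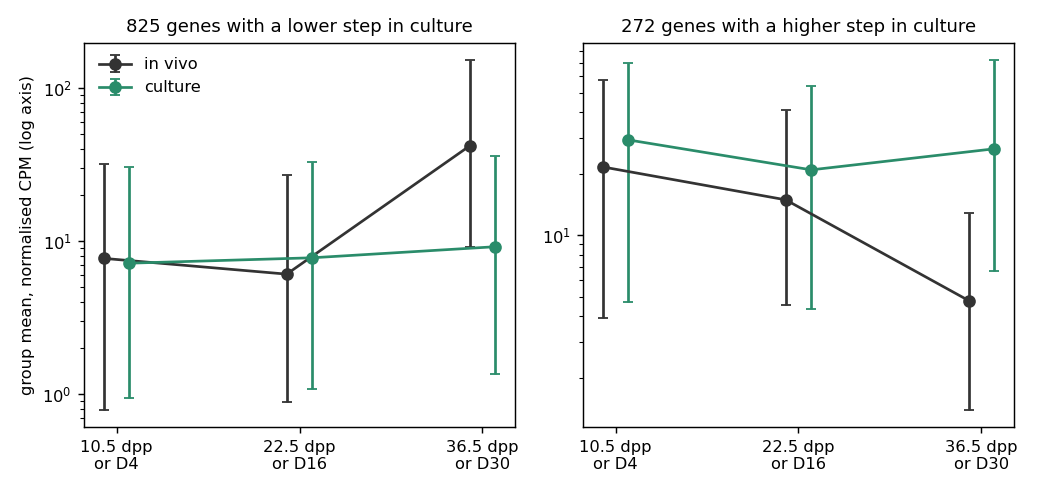
Group means in normalised CPM (log axis) over the 825 genes with a lower step and the 272 with a higher step, as medians over genes (points) with lower and upper quartiles (bars), at the 3 matched ages in vivo and in culture. At the oldest age the median of the lower genes is 42.0 in vivo and 9.19 in culture, and that of the higher genes 4.78 and 26.5.

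The ages before the step, whose 6 libraries were not in the fit, place these genes along the wave. The median level over the 825 genes with a lower step was 7.71 at 10.5 dpp, 6.08 at 22.5 dpp and 42.0 at 36.5 dpp, and 7.17 at D4, 7.78 at D16 and 9.19 at D30. The median over the 272 genes with a higher step was 21.6, 14.9 and 4.78 in vivo and 29.3, 20.9 and 26.5 in culture. The library of D30 from frozen tissue (controlled slow frozen, labelled CSF), which the fit did not use, lay below both 36.5 dpp libraries for 795 of the 825 genes with a lower step (96.4%, against 45.3% of all genes tested) and above both for 257 of the 272 genes with a higher step (94.5%, against 42.8%). It lay within the range of the fresh D30 libraries for 314 (38.1%) and 154 (56.6%), against 53% of all genes tested. The 36.5 dpp libraries also chose these genes, so these shares are descriptions.

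By chromosome, 23 of 770 genes tested on the X were called lower (2.99%) and 26 higher (3.38%), against 4.39% and 1.45% of all genes tested. The median step of the X genes was -0.57 in vivo and -0.02 in culture. Of 21 genes tested on the Y, many of them in multicopy families whose reads cannot be told apart, 0 were called, and the median difference was -2.90. On the autosomes the share of lower calls was between 2.97% (chromosome 11) and 5.81% (chromosome 19). The share of higher calls there was between 0.621% (chromosome 12) and 2.33% (chromosome 3). Long non-coding RNAs made up 75 of the lower calls (4.52% of 1661 tested) and 3 of the higher calls (0.181%), against 4.41% and 1.59% of 16878 protein-coding genes.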

How the data were processed

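Poly(A) RNA of mouse testis was sequenced as stranded single reads. The authors deposited raw counts per gene, made with STAR 2.7.3a on GRCm38 and HTSeq 0.12.4; the strand setting of HTSeq is not given in the sources used here. Totals were 31634658 to 45760541 per library, and 0 columns lacked a sample. The p-values measure the spread between the libraries, which the labels name as separate samples.

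Genes passing filterByExpr in the 4 groups were tested with the quasi-likelihood test of edgeR 4.0.16 (R 4.3.3, TMM factors, Benjamini-Hochberg adjustment) for the steps and for their difference, without any 6.5 dpp library. DESeq2 1.42.0, other scalings, filters and thresholds, added libraries, each library left out and a replicate block were alternatives. Scripts were tested on simulated data. Tables and plots used Python 3.11.15, pandas 2.3.3 and matplotlib 3.10.9. Promoters came from RefSeq (GRCm38.p6).

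Named were to be the 10 smallest p and the 10 largest differences in each direction among genes of an absolute log2 of at least 2 and an adjusted p of at most 0.001. The largest differences needed over 3 counts in every library. Also planned were, from each list, the called members of smallest p, uncalled members of high mean CPM and members that the paper names. Not all of these are described: Igfbp3, Serpina3n, Il33 and Vegfa, for example, are list members that the paper names, and no value is given for them here. Tnp2, Odf1, Smcp, Gapdhs, Acr and Insl3 were added outside this plan. That stricter set was empty, so the 10 smallest p in each direction at an adjusted p under 0.05 were named after values were seen. The genes described and the lists were chosen with earlier results of these data known. Of the 67 named called genes 16 overlap another annotated gene, so their counts are uncertain where strand was not used.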

Additional observations from a re-analysis of the deposited data

Results flagged for a closer look

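The step from 22.5 to 36.5 dpp, or from D16 to D30, differed between culture and in vivo by the test of the difference itself for 825 genes with a lower and 272 with a higher step in culture (edgeR, adjusted p under 0.05). For each of the 67 named genes below, this test passed; the value is the log2 step in culture minus that in vivo.

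The leading lower steps were those of Agpat2 (-4.34), Phospho1 (-6.12), Tuba4a (-4.06), Cdyl (-3.22), Sh3kbp1 (-3.20), Tspan6 (-4.10), Cxxc5 (-3.38), Dscaml1 (-5.41), Lrrc57 (-3.87) and Trim38 (-4.74). The leading higher steps were those of Col18a1 (3.07), Plat (2.20), Ces2g (2.49), Slc4a5 (2.65), Prelp (3.31), Fam107a (2.60), Scn3b (4.26), Syk (2.44), Shbg (2.40) and Aplp1 (2.35). In the spermatid lists the difference was lower for Tssk6 (-4.12), Tpi1 (-2.08), Prkar2a (-3.54), Camk4 (-3.13), Ppp1cc (-1.50), Calr3 (-3.91), Ace (-2.58) and Pmis2 (-3.32). The glycolytic list, which holds Tpi1, also holds genes of other cells. Among genes of meiosis, spermatogonia and the retinoid pathway it was taken for Rec8 (-2.28), Syce2 (-1.96), Ccnb3 (3.05), Lhx1 (-3.64), Rhox13 (-2.26), Stra8 (1.38) and Stra6 (2.46). Among Sertoli, Leydig and myoid cell genes it was taken for Trf (1.64), Gata1 (1.87), Hsd17b3 (-4.31), Ptgds (-2.11), Sult1e1 (-3.59), Actg2 (-2.94), Acta2 (1.90) and Smtn (1.44). Among genes of the matrix, macrophages, epididymis and adipocytes these were Fbln1 (1.87), Col1a1 (2.58), Col3a1 (2.25), Postn (-2.28), Mrc1 (1.87), F13a1 (3.42), Adgre1 (1.40), Spink8 (1.89) and Fabp4 (-2.66). Among genes of hypoxia, oxidative stress, p53 and autophagy these were Vldlr (-1.59), Ankrd37 (-1.87), Srxn1 (-2.66), Osgin1 (-2.67), Sesn2 (1.68) and Gabarapl1 (-1.72). Among genes of inflammation these were Relb (1.66), Nfkb2 (1.71), Icam1 (1.64), Ccl8 (5.14), Serping1 (2.20), Cp (2.19), Lcn2 (-2.12), C3 (2.17) and Tap1 (3.14). Of these 67 genes 27 were called in every fit with 1 library left out.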

How the results depend on the processing

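Beside the 825 lower and 272 higher steps, 3828 genes that fell and 4119 that rose in vivo, and 0 that fell and 1 that rose in culture, the counts changed as follows. With DESeq2 there were 1512 lower and 836 higher steps, and 31 genes fell and 429 rose in culture. With library size only there were 2902 higher steps, 7757 genes fell in vivo, and 1 fell and 19 rose in culture. With RLE size factors 2 genes rose in culture. With no filter on low counts 3 fell and 90 rose in culture. With the 10.5 dpp and D4 libraries added there were 1784 lower and 2909 higher steps, 5932 genes fell in vivo, and 56 fell and 296 rose in culture. With the D30 CSF library added there were 486 higher steps, and 1 gene fell and 3 rose in culture. With the 3 libraries low in spermatid genes removed, chosen after seeing the data by the levels of these same genes, there were 1912 lower steps, and 23 genes fell and 297 rose in culture. At an absolute log2 of at least 2 and an adjusted p of at most 0.001 there were 0 lower and 0 higher steps, 27 genes fell and 731 rose in vivo, and 0 rose in culture. At an adjusted p under 0.01 there were 171 lower and 13 higher steps, 931 genes fell and 2336 rose in vivo, and 0 rose in culture. The causes were not tested.

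With 1 library left out there were 236 to 1462 lower and 27 to 352 higher steps, 1857 to 4116 genes fell and 2627 to 4449 rose in vivo, and 0 to 9 fell and 0 to 145 rose in culture. Where 1 library is left in D16 or 36.5 dpp, it is assumed to vary like the other groups. The difference turned positive without D16 replicate 1 for Akap4 (1.92), Odf1 (0.86), Acr (0.12) and Smcp (1.16), and without D16 replicate 2 it was -3.80, -4.70, -1.58 and -3.79. With library size only the difference turned positive for Cyp17a1 (0.0055).

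With the replicate number as a block (replicate block) there were 18 lower and 0 higher steps, 2280 genes fell in vivo and 0 rose in culture, and 56 of the 67 named calls were lost. The numbers do not pair the samples: deviations from the group means correlated from -0.584 to 0.674 between libraries of the same number.

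Groups of 2 or 3 libraries limit the precision of each difference. A gene at 3 counts or fewer in a library is not told apart from 0 at this depth.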
